A study of Rattus norvegicus with 22 samples.

Results

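Expression of the tumor necrosis factor (TNF) and NF-κB pathway was followed in rat hippocampus after lateral fluid percussion (LFP), a model of traumatic brain injury (TBI) in which a fluid pulse strikes the exposed dura. Members were 10 genes listed by name: the cytokine gene Tnf, its receptors Tnfrsf1a and Tnfrsf1b, the NF-κB subunits Nfkb1, Nfkb2, Rela and Relb, and the regulators Nfkbia, Tnfaip3 and Bcl3. The count table held 17172 genes, among them 8 of the 10 members, and Relb and Tnfaip3 were not analysed here. All 8 passed the filter on low counts, also when the filter was applied to the sham samples alone, and they were tested together with 12875 genes in all.

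Transcripts were counted in the injured-side hippocampus of adult male Sprague-Dawley rats in 4 groups. Sham rats had the craniectomy and anesthesia without the fluid pulse and were sampled at day 1 (n = 2) or day 14 (n = 4). TBI rats received a moderate LFP injury and were sampled at day 1 (n = 4) or day 14 (n = 4). All groups therefore shared the surgery, and no uninjured group without surgery was among the samples analysed. The whole ipsilateral hippocampus went into each RNA sample, so that fewer cells of a type and less RNA per cell cannot be told apart. Replicates carried separate numbers, and rats were assigned individually to sham or LFP.

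TNF is made as a membrane-bound protein that is shed from the cell, and in injured brain microglia and infiltrating myeloid cells are its best known sources. It binds TNFR1 (Tnfrsf1a), which is found on most cells and carries a death domain, and TNFR2 (Tnfrsf1b), which is found mainly on immune, endothelial and glial cells. Both receptors recruit adaptors and ubiquitin ligases that activate the IKK kinases. IKK marks IκBα (Nfkbia) for destruction and so releases dimers of p65 (Rela) and p50 (Nfkb1). A slower branch processes p100 (Nfkb2) to p52, which pairs with RelB. Nfkbia, Nfkb2 and Bcl3 are known to be transcribed under NF-κB itself, and the products of Nfkbia and Tnfaip3 restrain the pathway.

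Because several of these genes are classical NF-κB targets, the 250 bases before each annotated start were read from RefSeq (build GRCr8) and searched on both strands for the κB consensus of 10 bases. Of the 8 measured members, 3 held a match (37.5%), against 3.54% of 33469 rat promoters of that length. Those promoters are shown 5′ to 3′ on the strand of the gene, with the match in capitals. Nfkb2 lies at chr1:255108124-255108373 on the plus strand with its match at −20 to −11, Nfkbia at chr6:78597073-78597322 on the minus strand with its match at −31 to −22, and Bcl3 at chr1:88613556-88613805 on the minus strand with its match at −38 to −29.
Nfkb2: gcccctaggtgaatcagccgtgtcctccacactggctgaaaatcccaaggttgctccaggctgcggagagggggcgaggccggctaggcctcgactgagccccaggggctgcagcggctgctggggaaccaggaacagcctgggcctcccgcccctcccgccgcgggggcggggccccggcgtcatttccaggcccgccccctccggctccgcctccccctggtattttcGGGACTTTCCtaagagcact
Nfkbia: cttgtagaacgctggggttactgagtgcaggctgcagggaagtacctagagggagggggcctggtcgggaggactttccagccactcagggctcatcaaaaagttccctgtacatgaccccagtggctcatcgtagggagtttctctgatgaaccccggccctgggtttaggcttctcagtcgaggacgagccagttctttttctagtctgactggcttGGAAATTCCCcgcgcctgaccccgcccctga
Bcl3: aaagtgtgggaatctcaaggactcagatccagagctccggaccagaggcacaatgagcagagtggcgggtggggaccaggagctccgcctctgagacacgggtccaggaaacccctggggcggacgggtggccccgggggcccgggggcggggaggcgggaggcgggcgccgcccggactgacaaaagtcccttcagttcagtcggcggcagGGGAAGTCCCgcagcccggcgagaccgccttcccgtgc

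The upstream windows of Tnf, Tnfrsf1a, Tnfrsf1b, Nfkb1 and Rela held no match to this consensus, which says only that these letters were not in those bases. Nfkb1 had a match just past its start, at +4 to +13, in the window of 30 bases at chr2:226805448-226805477 on the minus strand.
Nfkb1: tgctctctcgacgtcagtGGGAATTTCCag
A match describes the sequence and is no evidence of binding in this tissue.

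At day 1, 6 of the 8 measured members were higher in TBI than in time-point-matched sham and 0 were lower (edgeR quasi-likelihood test, two-sided, Benjamini-Hochberg adjusted p under 0.05). Of all tested genes, 11.2% were called higher and 7.93% lower. The 6 were Tnf, both receptors, Nfkb2, Rela and Bcl3, and Nfkb1 and Nfkbia had positive fold changes that missed the threshold. At day 14, 4 of the 8 were higher (Tnfrsf1a, Tnfrsf1b, Nfkb2 and Bcl3) and 0 were lower, against 4.07% of all genes higher and 0.365% lower. The median log2 fold change of the 8 was 1.65 at day 1 and 0.60 at day 14, against −0.02 and −0.03 over all tested genes. At an unadjusted p under 0.05, 0 of the 8 were lower at either day, against 17.0% of all genes at day 1 and 4.28% at day 14, and limma-voom and DESeq2 called 0 lower as well. Levels below are CPM (read counts scaled to a common library size), with TMM factors applied. They were not divided by transcript length and were not compared between genes.

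**Figure D1:**
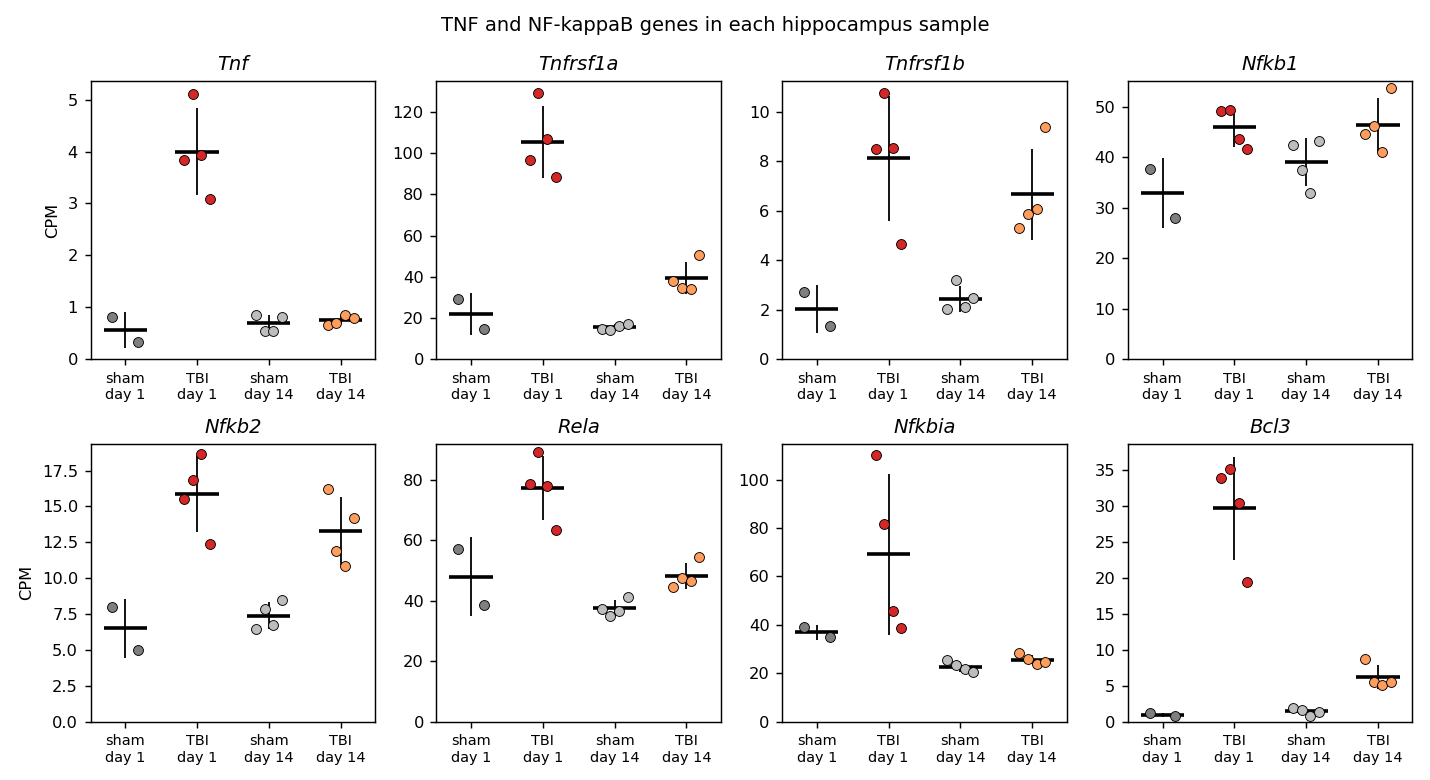
Level of each of the 8 measured members in every sample (CPM, linear axis from 0), with sham and TBI at day 1 and day 14 on the horizontal axis, 1 point per rat, a horizontal bar at the group mean and a vertical line for 1 SD on either side. All 4 TBI day 1 samples of Bcl3 sit between 19.4 and 35.1 CPM while the 6 sham samples sit between 0.784 and 1.97 CPM, and the TBI day 1 samples of Tnf, at 3.09 to 5.11 CPM, lie above the other 10 samples.

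Tnf, the ligand, was a transcript of few reads. Its level was 0.808 and 0.323 CPM in the sham day 1 samples and 3.84, 5.11, 3.94 and 3.09 CPM in the TBI day 1 samples. These values rest on 15 and 7 counts in sham and on 74, 126, 86 and 69 counts in TBI. Every TBI day 1 sample lay above both sham samples. The difference was 7.09-fold (log2 fold change 2.83 ± 0.42 SE, adjusted p = 0.000366). At day 14 the sham samples had 0.852, 0.541, 0.541 and 0.816 CPM and the TBI samples 0.663, 0.703, 0.845 and 0.792 CPM. The groups overlapped, and the log2 fold change was 0.13 (95% confidence interval −0.58 to 0.84, adjusted p = 0.945). No change of Tnf was detected at day 14, and the interval reaches from 0.671-fold to 1.80-fold.

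Tnfrsf1a, the gene of the broadly expressed receptor TNFR1, rose at both days. Its level was 29.3 and 14.7 CPM in sham day 1 and 96.9, 129, 107 and 88.5 CPM in TBI day 1. Both sham samples were below all TBI samples, and sham replicate 2 was at the level of the day 14 shams while replicate 1 lay above it. The day 1 difference was 4.81-fold (log2 fold change 2.27 ± 0.27 SE, adjusted p = 5.45e-05). At day 14 the level was 14.5, 14.1, 16.3 and 17.0 CPM in sham and 37.9, 34.4, 34.1 and 50.6 CPM in TBI. Again every TBI sample exceeded every sham sample, by 2.54-fold on average (log2 fold change 1.34 ± 0.20 SE, adjusted p = 0.000685).

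Tnfrsf1b, the gene of TNFR2, had 2.69 and 1.34 CPM in sham day 1 and 8.51, 10.8, 8.53 and 4.66 CPM in TBI day 1. TBI replicate 4 was the lowest of its group and still above both sham samples. The fold change was 4.04 (log2 2.01 ± 0.39 SE, adjusted p = 0.00278). At day 14 its level was 2.03, 3.18, 2.11 and 2.45 CPM in sham and 5.31, 5.86, 6.06 and 9.40 CPM in TBI, without overlap. The day 14 fold change was 2.72 (log2 1.44 ± 0.30 SE, adjusted p = 0.00858).

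For the NF-κB subunits the day 1 fold changes lay between 1.40 (Nfkb1) and 2.44 (Nfkb2). Rela, which encodes the transactivating subunit p65, had 57.1 and 38.7 CPM in sham day 1 and 78.5, 89.2, 77.9 and 63.6 CPM in TBI day 1. The TBI samples were all higher, and TBI replicate 4 was close to sham replicate 1. The fold change was 1.61 (log2 0.69 ± 0.17 SE, adjusted p = 0.0123). At day 14 the sham samples had 37.2, 34.9, 36.5 and 41.3 CPM and the TBI samples 44.4, 47.4, 46.5 and 54.3 CPM. These did not overlap, yet the fold change of 1.28 did not pass the test (log2 0.36 ± 0.14 SE, adjusted p = 0.220). In the edgeR fit restricted to the day 14 groups Rela was called (log2 0.40, adjusted p = 0.0230). The share of all genes called higher in that fit was 7.38%, against 4.07%. Groups with every TBI sample above every sham sample made up 9.13% of all genes at day 14 and 16.7% at day 1.

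Nfkb2, the gene of p100 and p52, had 7.97 and 5.03 CPM in sham day 1 and 15.5, 16.8, 18.7 and 12.4 CPM in TBI day 1. All TBI samples exceeded both sham samples. Its fold change was 2.44 (log2 1.29 ± 0.25 SE, adjusted p = 0.00242). At day 14 it had 6.49, 7.87, 6.71 and 8.49 CPM in sham and 16.2, 11.9, 10.9 and 14.2 CPM in TBI, a 1.80-fold difference without overlap (log2 0.84 ± 0.19 SE, adjusted p = 0.0169). That call was lost when any of 4 day 14 samples was left out: sham replicate 1 (adjusted p = 0.0654), sham replicate 3 (0.0622), TBI replicate 1 (0.0687) or TBI replicate 4 (0.0587).

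Nfkb1, the gene of p105 and p50, had the smallest SD of log2 CPM over the 14 samples, 0.24. Its level was 37.8 and 27.9 CPM in sham day 1, 49.1, 49.4, 43.7 and 41.7 CPM in TBI day 1, 42.5, 37.6, 32.9 and 43.2 CPM in sham day 14 and 44.6, 46.2, 41.1 and 53.7 CPM in TBI day 14. The day 1 groups did not overlap, and the day 14 groups did. The log2 fold changes were 0.49 ± 0.17 SE at day 1 (adjusted p = 0.0531) and 0.25 ± 0.13 SE at day 14 (adjusted p = 0.477). The day 1 value passed the threshold when 1 of 3 samples was left out: sham day 1 replicate 1 (0.72, adjusted p = 0.0224), TBI day 1 replicate 4 (0.53, adjusted p = 0.0389) or sham day 14 replicate 3 (0.49, adjusted p = 0.0474). Without sham day 1 replicate 2 it fell to 0.28 (adjusted p = 0.466).

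Nfkbia, the gene of the inhibitor IκBα, had the widest spread of the members in TBI day 1, with an SD of log2 CPM of 0.71 against 0.51 for Tnfrsf1b, the next. Its level was 39.0 and 34.8 CPM in sham day 1 and 110.3, 81.8, 45.9 and 38.5 CPM in TBI day 1. TBI replicates 1 and 2 were far above sham, replicate 3 was slightly above, and replicate 4 lay within the sham range. The log2 fold change was 0.91 ± 0.32 SE (adjusted p = 0.0573). It was 1.11 without TBI day 1 replicate 4 (adjusted p = 0.00959), 1.06 without replicate 3 (adjusted p = 0.0307) and 0.59 without replicate 1 (adjusted p = 0.295). At day 14 the level was 25.3, 23.4, 21.6 and 20.4 CPM in sham and 28.2, 25.7, 23.7 and 24.9 CPM in TBI, with overlap and a log2 difference of 0.18 ± 0.25 SE (adjusted p = 0.882).

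The baseline mattered for Nfkbia. Both sham day 1 samples were above all sham day 14 samples (log2 difference 0.70 ± 0.30 SE, adjusted p = 0.111). Against the sham day 14 samples, which differ from TBI day 1 in both injury and day, TBI day 1 was higher by a log2 value of 1.61 (adjusted p = 0.000157). Across the whole member list, 0 of 8 were called between sham day 1 and sham day 14 in either direction, whereas 19.1% of all genes were. At an unadjusted p under 0.05 the count was 1 of 8, Nfkbia, against 34.7% of all genes, and limma-voom and DESeq2 also called 0.

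Bcl3, an atypical IκB protein that binds p50 and p52 dimers in the nucleus, had the largest fold change of the 8 at both days. Its level was 1.19 and 0.784 CPM in sham day 1 and 33.9, 35.1, 30.4 and 19.4 CPM in TBI day 1. No sham sample came near the injured ones. The fold change was 30.2 (log2 4.92 ± 0.41 SE, adjusted p = 5.63e-06). At day 14 it had 1.97, 1.68, 0.811 and 1.42 CPM in sham and 8.69, 5.57, 5.12 and 5.54 CPM in TBI. TBI replicate 1 stood above the other three, and all 4 exceeded sham. The day 14 fold change was 4.25 (log2 2.09 ± 0.28 SE, adjusted p = 0.000315).

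**Figure D2:**
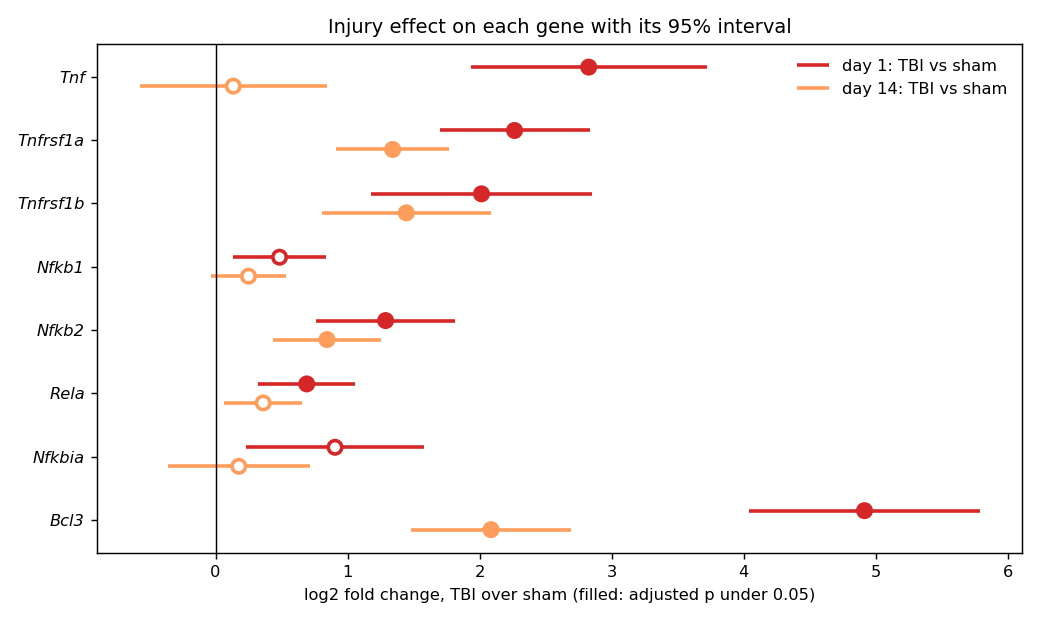
Log2 fold change of TBI over sham for each of the 8 measured members at day 1 and day 14, with bars for 95% confidence intervals and filled points for adjusted p under 0.05. Bcl3 reaches 4.92 at day 1 and 2.09 at day 14, and the interval of Tnf at day 14 spans 0.

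Whether the injury effect changed between days was tested directly, as the log2 fold change at day 1 minus that at day 14. It was larger at day 1 for 2 of the 8 members, Tnf and Bcl3, and smaller for 0, against 2.24% and 1.44% of all genes. The difference was 2.69 ± 0.53 SE for Tnf (adjusted p = 0.0122) and 2.83 ± 0.47 SE for Bcl3 (adjusted p = 0.00595). For Tnf it was 2.16 without sham day 1 replicate 2 (adjusted p = 0.0519). For Tnfrsf1a it was 0.92 ± 0.31 SE (adjusted p = 0.118), with 1.50 without sham day 1 replicate 1 (adjusted p = 0.0138) and 0.50 without sham day 1 replicate 2 (adjusted p = 0.445). The remaining differences were 0.24 for Nfkb1, 0.33 for Rela, 0.44 for Nfkb2, 0.57 for Tnfrsf1b and 0.73 for Nfkbia, with adjusted p from 0.340 to 0.573. The choice of sham day 1 sample moved 4 of them by more than 1.5 times. Without replicate 2 they were 0.03 for Nfkb1, 0.07 for Rela, 0.14 for Nfkb2 and 0.14 for Tnfrsf1b, and without replicate 1 they were 0.47, 0.63, 0.81 and 1.15 in the same order. The interval for Tnfrsf1b, −0.44 to 1.58, included 0 as well as differences above 1.

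Directly between injured groups, 5 of 8 members were lower at day 14 than at day 1 and 0 were higher, against 21.9% and 17.6% of all genes. Tnf was 5.27-fold lower (log2 −2.40 ± 0.31 SE), Bcl3 4.78-fold lower (log2 −2.26 ± 0.26 SE) and Nfkbia 2.70-fold lower (log2 −1.43 ± 0.25 SE). Tnfrsf1a was 2.68-fold lower (log2 −1.42 ± 0.20 SE) and Rela 1.60-fold lower (log2 −0.68 ± 0.14 SE), and adjusted p for the 5 ranged from 1.86e-05 to 0.00137. In contrast, the log2 difference was −0.28 for Tnfrsf1b (interval −0.89 to 0.32), −0.26 for Nfkb2 (−0.65 to 0.14) and 0.01 for Nfkb1 (−0.27 to 0.30), none of which passed the test. This comparison carries the day as well as the course of injury, and it shares samples with the preceding ones.

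Single samples took the same rank for many members. In TBI day 1, replicate 4 was the lowest sample for 8 of 8 members and replicate 2 the highest for 6. In sham day 1, replicate 1 exceeded replicate 2 for 8 of 8. In TBI day 14, replicate 4 was the highest for 4. The members share these libraries and are not independent observations. Leaving out sham day 1 replicate 2 reduced the members called at day 1 from 6 to 3, with Tnfrsf1b (log2 1.59, adjusted p = 0.0591), Nfkb2 (0.99, 0.0543) and Rela (0.44, 0.208) losing their calls. In that fit the share of all genes called higher fell as well, from 11.2% to 4.23%. Leaving out TBI day 1 replicate 4 raised the count to 8 and the share of all genes called higher to 13.1%. With all samples, limma-voom called 7, adding Nfkb1, and DESeq2 called 8, adding Nfkb1 and Nfkbia. The shares of all genes called higher were 10.9% with limma-voom and 13.3% with DESeq2. In the fit restricted to the day 1 groups Rela also lost its call (0.72, adjusted p = 0.139).

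Markers of several cell types differed between the groups along with the members. The summed level of 10 markers of blood-derived myeloid cells was 30.4 to 53.6 CPM in sham day 1, 252 to 485 CPM in TBI day 1, 28.8 to 36.7 CPM in sham day 14 and 50.3 to 163 CPM in TBI day 14, and none of these markers was at 0 in a whole group. At day 1, 8 of the 9 tested were higher, and at day 14 1 of 9, against 11.2% and 4.07% of all genes. The summed level of 9 microglial markers was 409 to 650, 690 to 787, 467 to 613 and 1020 to 1807 CPM in the same order. Of these markers, 2 of 9 were higher and 2 lower at day 1, against 11.2% and 7.93% of all genes. At day 14, 8 of 9 were higher, against 4.07% of all genes. Tnf and the myeloid sum both had their highest values in TBI day 1, and so did the astrocyte and endothelial sums given below. The microglial sum had its highest values in TBI day 14. Which cells the Tnf reads came from was not tested.

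Endothelial markers (8 genes) summed to 312 to 571 CPM in sham day 1 and, in TBI day 1 replicates 1 to 4, to 1021, 791, 632 and 549 CPM. Of the 8, 2 were higher at day 1 and 0 at day 14, against 11.2% and 4.07% of all genes. The 11 neuronal markers were detected in every group, with 4 lower at day 1, against 7.93% of all genes. They summed to 3958, 7482, 7816 and 7857 CPM in those TBI samples. Nfkbia in the same 4 samples followed the order of the endothelial sums and the reverse order of the neuronal sums. The astrocyte, oligodendrocyte, blood-derived myeloid, microglial and choroid plexus sums followed neither order in these samples. A link of Nfkbia to any of these cell types was not tested. Astrocyte markers (7 genes) summed to 5813 to 9126 CPM in sham day 1 and 12722 to 18714 CPM in TBI day 1. At day 14 they summed to 4874 to 6087 CPM in sham and 8697 to 12809 CPM in TBI. The sums did not overlap between injury and sham at either day, yet of the 7 Gfap alone was called, higher at both days. The shares of all genes called higher were 11.2% and 4.07%. The median log2 fold change of the list was −0.31 at day 1 and 0.33 at day 14, and Aldh1l1, Slc1a2, Gja1 and S100b had negative values at day 1. Of 7 oligodendrocyte markers, 2 were lower at day 1, against 7.93% of all genes. The part of these marker shifts in the members' values was not tested.

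**Figure D3:**
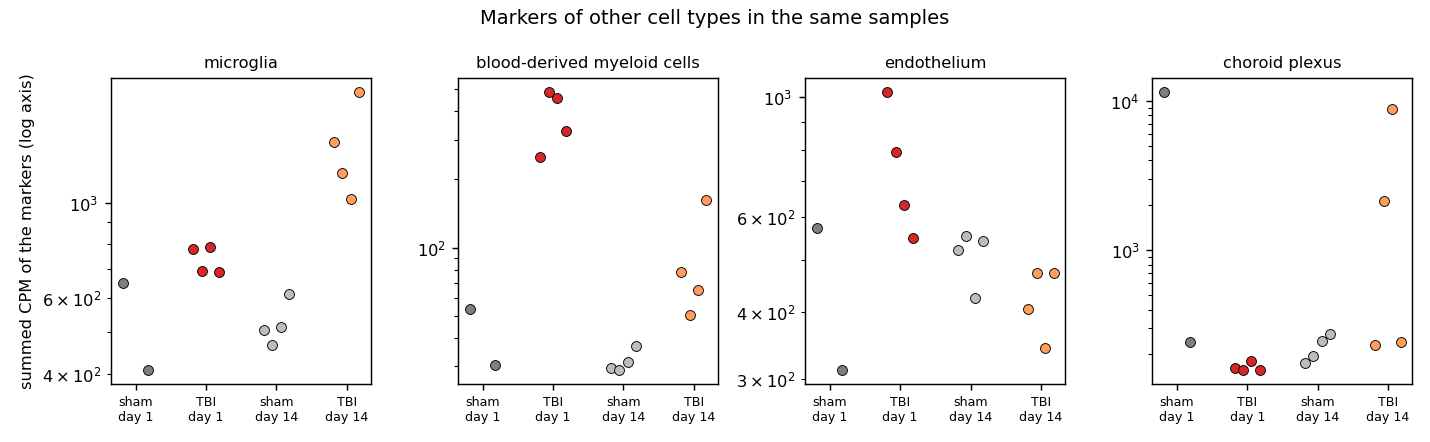
Summed level of cell type markers in every sample (CPM on a log scale), 1 panel per cell type and 1 point per rat, by group. Blood-derived myeloid markers peak at TBI day 1 (252 to 485 CPM), microglial markers at TBI day 14 (1020 to 1807 CPM), and choroid plexus markers are high in 3 libraries.

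Choroid plexus markers summed to 11425 CPM in sham day 1 replicate 1, 2130 CPM in TBI day 14 replicate 2 and 8873 CPM in TBI day 14 replicate 3, against 158 to 274 CPM in the other 11 libraries, with Otx2 at 0 in all groups. Without those 3 libraries the members called higher were 7 at day 1, with Nfkb1 added (log2 0.71, adjusted p = 0.0403), and 4 at day 14, and Tnf and Bcl3 were again called for the difference between days. The fold changes at day 1 were then larger for all 8 members, for instance 3.59 for Tnf and 2.83 for Tnfrsf1a on the log2 scale. The day 1 values then rest on a single sham sample, which is assumed to vary like the other groups.

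Around the members, 97 further genes of the pathway were listed by role, of which 88 were in the table and 80 were tested. At day 1, 33 of the 80 were higher and 1 was lower, against 11.2% and 7.93% of all tested genes. The median log2 fold change was 0.53. At day 14, 14 were higher and 0 lower, against 4.07% and 0.365% of all tested genes, with a median of 0.29. Of the 80, 6 passed the filter only through the TBI samples (Tnfsf13b, Ccl2, Ccl3, Cxcl1, Il1b and Nos2). This favours a higher level in TBI but does not fix a call, and Tnfsf13b and Nos2 were not called at day 1. Among the 74 that also passed in the sham samples alone, 29 were higher and 1 lower at day 1 (median 0.45), and 13 were higher and 0 lower at day 14 (median 0.26). Over samples left out, the day 1 count was lowest without sham day 1 replicate 2, which leaves a single sham sample at that day. The share of all genes called higher was lowest there too. Without sham day 14 replicate 2 or replicate 3 the day 14 count was 9 of the 80. The share of all genes called higher was then 2.91% and 2.98%, against 4.07%.

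**Figure D4:**
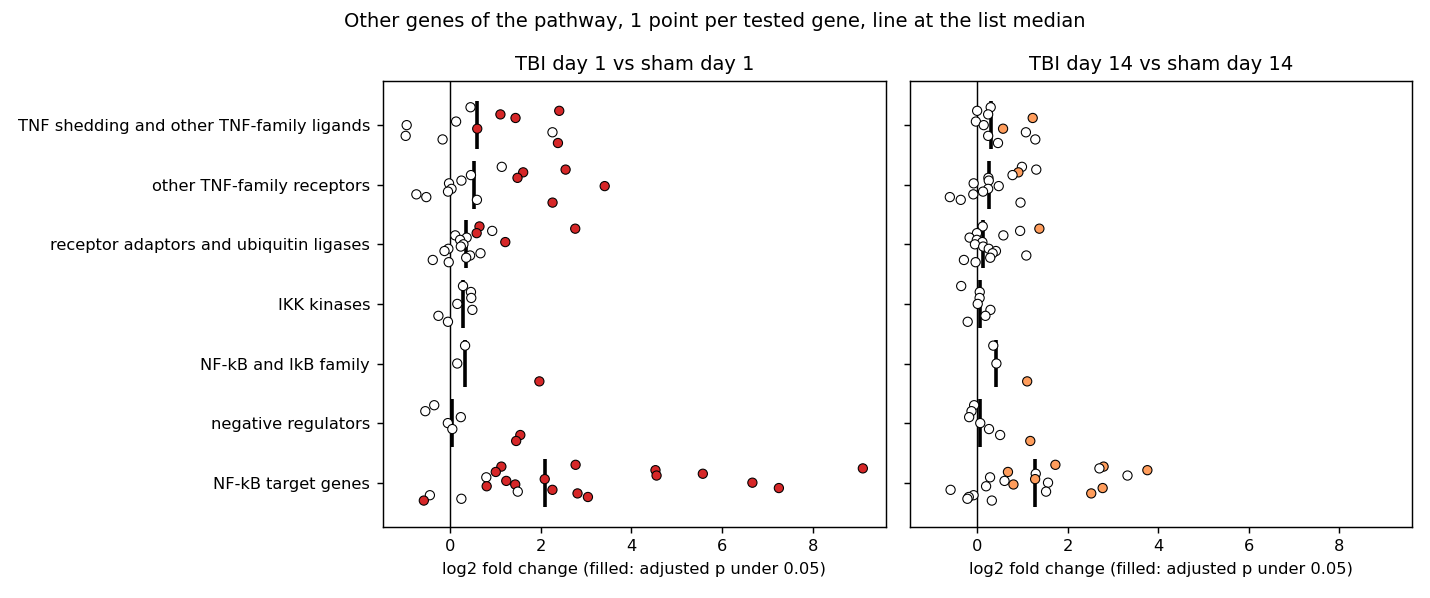
Log2 fold change of each tested pathway gene in 7 lists of pathway genes other than the members, at day 1 and day 14 (1 point per gene, filled where adjusted p is under 0.05, a line at the median). The NF-κB target genes have medians of 2.08 at day 1 and 1.28 at day 14 (1.33 and 0.64 without the 5 that passed the filter only through the TBI samples), and the IKK kinases medians of 0.28 and 0.06.

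Among the other TNF-family ligands and the genes of TNF shedding, 5 of 11 were higher at day 1 and 2 at day 14. The shares of all genes were 11.2% and 4.07%. Ltb, the lymphotoxin beta gene, had 1.24 and 0.599 CPM in sham day 1 and 5.08, 6.49, 5.78 and 2.06 CPM in TBI day 1. It rose 5.29-fold at day 1 (adjusted p = 0.00247) and its day 14 value was 0.00 ± 0.38 SE on the log2 scale. Tnfsf9, the gene of 4-1BB ligand, rose 5.19-fold at day 1 (adjusted p = 0.000347). Rhbdf2, whose product iRhom2 brings the TNF-shedding protease to the cell surface, rose 2.71-fold at day 1 (adjusted p = 0.00167) and 2.34-fold at day 14 (adjusted p = 0.00138).

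Of the other TNF-family receptors, 5 of 14 were higher at day 1 and 1 at day 14, against 11.2% and 4.07% of all genes. The day 14 share, 7.14%, was near that of all genes. Tnfrsf12a, the receptor of the cytokine TWEAK, went from 4.96 and 4.93 CPM in sham day 1 to 41.1, 84.3, 42.7 and 42.1 CPM in TBI day 1, a 10.6-fold rise (adjusted p = 1.61e-05). At day 14 its TBI samples had 5.04, 7.50, 6.51 and 4.49 CPM, close to sham (log2 0.48 ± 0.25 SE, adjusted p = 0.477). Ltbr, the lymphotoxin beta receptor and an activator of the p100 branch, rose 3.05-fold at day 1 (adjusted p = 0.000445) and 1.88-fold at day 14 (adjusted p = 0.00794). Fas, a death receptor, rose 5.84-fold at day 1 (adjusted p = 0.00717).

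Of the adaptors and ubiquitin ligases, 4 of 17 were higher at day 1: Birc3, which encodes cIAP2 (6.76-fold, adjusted p = 0.000585), the kinase gene Ripk1 (2.32-fold, adjusted p = 0.000833), Birc2 (1.56-fold, adjusted p = 0.0219) and the caspase-8 inhibitor Cflar (1.50-fold, adjusted p = 0.0438). At day 14 Birc3 alone passed, at 2.59-fold (adjusted p = 0.0259). The shares called higher were 23.5% at day 1 and 5.88% at day 14, against 11.2% and 4.07% of all genes. The day 14 share was near that of all genes. Of the IKK kinases and their partners, 0 of 7 were called at either day by edgeR, and at an unadjusted p under 0.05 there were 2 higher at day 1 and 1 lower at day 14, against 17.4% of all genes higher at day 1 and 4.28% lower at day 14. With limma-voom 0 were called at either day, whereas DESeq2 called Map3k14 higher at day 1 and Chuk lower at day 14. On the log2 scale Ikbkb differed by 0.45 ± 0.21 SE at day 1 (adjusted p = 0.135), Chuk 0.28 ± 0.14 SE (0.160) and Map3k14, the kinase of the p100 branch, 0.49 ± 0.17 SE (0.0620).

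In the rest of the NF-κB and IκB family, 1 of 3 tested genes, Nfkbiz, was called higher at both days. The shares of all genes were 11.2% at day 1 and 4.07% at day 14. This gene of the nuclear protein IκBζ had 3.23 and 4.29 CPM in sham day 1 and 15.5, 17.6, 13.6 and 12.3 CPM in TBI day 1. It rose 3.91-fold at day 1 (adjusted p = 0.00012) and 2.15-fold at day 14 (adjusted p = 0.00385). Nfkbib and Nfkbie, which encode cytoplasmic inhibitors like IκBα, had log2 fold changes of 0.33 and 0.15 at day 1 that did not pass. Between the sham groups, Nfkbib was 1.91-fold (adjusted p = 0.00202) and Nfkbiz 1.89-fold (adjusted p = 0.0183) higher at day 1. Of the negative regulators, 2 of 7 were higher at day 1, against 11.2% of all genes. They were Tnip2 (2.92-fold, adjusted p = 0.000821) and Zc3h12a, which encodes a ribonuclease acting on cytokine mRNAs (2.74-fold, adjusted p = 0.0101). At day 14, 1 of 7 was higher, Zc3h12a (2.26-fold, adjusted p = 0.0208), against 4.07% of all genes.

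Of the 21 NF-κB target genes tested, 5 (Ccl2, Ccl3, Cxcl1, Il1b and Nos2) passed the filter only through the TBI samples and are left out of the counts that follow. Of the other 16, 12 were higher and 1 was lower at day 1, against 11.2% and 7.93% of all genes. The day 1 median was 1.33 on the log2 scale. At day 14, 7 were higher and 0 lower, against 4.07% and 0.365% of all genes, with a median of 0.64. These medians were above those of the other 6 lists at both days. The lists were chosen with earlier results of these data known, so their order is no test of NF-κB activity. Lcn2, which encodes the iron-binding protein lipocalin 2, went from 4.90 and 1.43 CPM in sham day 1 to 637, 310, 472 and 492 CPM in TBI day 1. The rise was 153-fold at day 1 (adjusted p = 6.15e-06) and 6.83-fold at day 14 (adjusted p = 0.0020). The gene called lower at day 1 was Vcam1, an adhesion molecule of the vessel wall (log2 −0.59, adjusted p = 0.0469), named after its value was seen. The count lower in TBI day 1 became 0 without any of sham day 14 replicates 1 to 3, TBI day 1 replicates 2 and 3 or TBI day 14 replicates 1 and 2.

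Some targets were almost without reads in sham and, since they entered testing only through the TBI samples, are given as counts without a test. Ccl2, a monocyte-attracting chemokine, had 3 and 3 counts in sham day 1 and 850, 4462, 1640 and 966 counts in TBI day 1. Il1b, the gene of interleukin-1β, had 1 and 1 counts in sham day 1 and 81, 224, 148 and 62 counts in TBI day 1. Cxcl1, a neutrophil-attracting chemokine, had 7 and 5 counts against 253, 478, 240 and 333 counts. All TBI day 1 samples were far above both sham samples for each of these genes. In TBI day 14 the counts were between 8 and 46 for Ccl2, 9 and 16 for Il1b and 1 and 12 for Cxcl1.

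In all, 10 pathway genes other than the members had an injury effect that differed between days. Ltb, Tnfsf9, Tnfrsf12a, Ripk1, Ccl2, Il1b, Sele, Lcn2 and Mmp9 had a larger one at day 1, and C3 a larger one at day 14. The counts, 9 and 1 of 80, stood against 2.24% and 1.44% of all genes. Among the 74 that also passed the filter in the sham samples alone, the counts were 7 and 1. Sele and Mmp9 were named after their values were seen, and Ccl2 and Il1b passed the filter only through the TBI samples. C3, the central complement component, had 40.1 and 31.2 CPM in sham day 1, 77.1, 57.3, 89.4 and 87.4 CPM in TBI day 1, 53.4, 35.7, 49.1 and 55.4 CPM in sham day 14 and 388, 286, 244 and 423 CPM in TBI day 14. It rose 2.18-fold at day 1 and 6.93-fold at day 14, with a log2 difference of −1.67 ± 0.31 SE (adjusted p = 0.00916). The 9 genes with a larger effect at day 1 fell to 4 with limma-voom, where the share of all genes was 1.38%. They fell to 5 without sham day 14 replicate 2, sham day 14 replicate 4 or TBI day 14 replicate 3. The shares of all genes were then 1.34%, 1.33% and 1.39%. The count also fell without sham day 1 replicate 2, which leaves a single sham sample at day 1.

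The patterns of single members over the 14 samples were compared with all other tested genes, each centred on its own mean, by the root mean square difference of log2 CPM. The nearest genes were Trim47 (0.29) and Adamts1 (0.30) for Tnf, whose own SD over the samples was 1.13. For Tnfrsf1a they were Arhgap30 (0.22) and Pdlim4 (0.23), for Tnfrsf1b C1qc (0.26) and Tgif1 (0.27), and for Nfkb2 Il17ra (0.16) and Vat1 (0.18). For Rela they were Ctdsp1 (0.12) and Triobp (0.13), for Nfkb1 Dnm2 (0.10) and Armc5 (0.11), and for Nfkbia Igf2bp2 (0.24) and LOC100911177 (0.25). Bcl3 had its nearest genes farther away, Ncf4 (0.34) and Clec4a1 (0.42), with an own SD of 1.89. Among members the nearest pair was Nfkb1 and Rela (0.35) and the farthest Nfkb1 and Bcl3 (1.73), while Tnf was nearest to Tnfrsf1a (0.51).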

How the data were processed

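RNA-seq of polyadenylated RNA from 14 rats was used. The authors mapped single-end reads to rn5 (STAR 2.4.2a) and assigned them to UCSC gene models (featureCounts). The deposited values are raw whole-number counts per gene. The library kit was stranded, and whether counting used strand is not given in the sources used here. Total counts per sample ranged from 15065540 to 23743703. Groups followed the labels, which give 4 sham samples at day 14, as the results of the paper do, while its methods give 2. Replicates differed by more than counting noise (chi-squared per degree of freedom 12.8 to 165), so tests rest on the spread between samples.

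The main test was the quasi-likelihood test of edgeR 4.0.16 (R 4.3.3), with TMM factors, the default filter, and all 14 samples in a model of 4 group means. Tests were two-sided, and Benjamini-Hochberg adjustment ran over 12875 genes, with calls under 0.05. CPM used TMM-scaled library sizes, and a prior count of 2 was added for log2 CPM. The fits were tested on simulated data. Alternatives were limma-voom (limma 3.58.1), DESeq2 1.42.0, median-of-ratios factors, other filters, a replicate block, fits of only the groups compared, other sham baselines, a covariate for choroid plexus markers and each sample left out. Leaving out the 3 choroid plexus libraries (summed markers above 1000 CPM) and counting the lists without genes that passed the filter only through the TBI samples were added after seeing the data.

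The members, the 7 lists of other pathway genes and the markers were chosen with earlier results of these data known. Members are all named. From each other list, up to 4 genes with the smallest p at day 1 and up to 2 at day 14 could be named, all genes of the IKK and IκB lists, and the 2 genes nearest in pattern to each member. Promoters came from RefSeq (GRCr8, matched by symbol, 8 of 8 measured members) and figures from matplotlib 3.10.9 in Python 3.11.15. The H3K4me3 peak lists, with rn5 positions, were not used here.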

Additional observations from a re-analysis of the deposited data

Results flagged for a closer look

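Bcl3 at TBI day 14 had 1 sample far from the others. Replicate 1 had 8.69 CPM and the other 3 had 5.12 to 5.57 CPM, and on the log2 CPM scale the gap to the nearest sample was 0.842 of the range, which exceeds the critical value of Dixon's test for 4 samples. Of 24 groups of 4 samples examined, 1 was flagged in this way, and chance flags about 1 in 20. Without that sample Bcl3 remained called at day 14.

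The injury effects of Tnf and Bcl3 differed between days by the test of the difference itself. The log2 fold change at day 1 minus that at day 14 was 2.69 for Tnf and 2.83 for Bcl3.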

How the results depend on the processing

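The main limit was the pair of sham day 1 samples: when either was left out, the lone sample was assumed to vary like the other groups. Tnf rested on 7 to 17 counts outside TBI day 1 and was removed by the filter of at least 10 counts per sample. Replicate numbers did not pair the samples: of 18 same-numbered pairs, 5 had correlated deviations above 0.1 (r from −0.35 to 0.24), and 3 of 14 samples correlated best with their own number. With the replicate block, Nfkb1 (0.53, adjusted p = 0.039) and Nfkbia (1.08, adjusted p = 0.0154) were called at day 1, for 8 members. The share of all genes called higher at day 1 was then 11.4%. The other pathway genes lower were 2 at day 1, 2 for the difference between days and 6 between sham days. The shares of all genes lower were 9.15%, 1.55% and 9.89%. Causes of the shifts listed here were not tested.

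Over single samples left out, members called higher at day 1 ranged from 3 to 8, at day 14 from 3 to 4 and for the difference between days from 1 to 3, and those higher in sham day 1 than sham day 14 from 0 to 1. Members lower in TBI day 14 than TBI day 1 were 5 in all such fits. Other pathway genes ranged from 19 to 35 higher and 0 to 3 lower at day 1, 9 to 16 higher and 0 to 1 lower at day 14, 5 to 11 higher and 1 to 2 lower for the difference, and 6 to 11 higher and 1 to 6 lower between sham days.

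Members with a larger effect at day 1 were 1 with at least 10 counts in every sample, and 5 with sham day 14, or all 6 sham samples, as the baseline (Tnfrsf1a, Rela and Nfkbia added), where the share of all genes was 21.9% and 17.8%, against 2.24%. With either of these baselines the sham mean cancels, and this difference is TBI day 1 against TBI day 14. With only the groups compared, 1 member (Nfkbia) was higher in sham day 1 than sham day 14. Other pathway genes at day 1 were 20 higher and 0 lower with only the groups compared, against 4.38% and 0.739% of all genes. Pathway genes lower at day 1 were 0 with at least 10 counts, 4 with the sham day 14 baseline and 3 with all 6 sham samples. The shares of all genes lower were 7.5%, 21% and 16.2%. DESeq2 gave 1 pathway gene lower at day 14, against 0.924% of all genes. For the difference between days the other pathway genes were 4 higher with limma-voom or the choroid plexus covariate and 5 with at least 10 counts. The shares of all genes higher were 1.38%, 1.06% and 2.19%. Pathway genes were 31 higher with the sham day 14 baseline and 29 with all 6 sham samples. They were 2 lower with DESeq2 and 4 with either sham baseline, against 3.52%, 17.6% and 13.9% of all genes. Between sham days the pathway genes lower were 1 with limma-voom or only the groups compared, and 5 with DESeq2. The shares of all genes lower were 7.59%, 8.96% and 11.2%.

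In the fits run, signs turned only for values that had not passed the test. The log2 fold change at day 14 was −0.12 for Tnf with the choroid plexus covariate and −0.10 for Nfkbia with all 6 sham samples. For Nfkb1 the difference between days was −0.0136 with the sham day 14 baseline and −0.0104 with all 6 sham samples. With either baseline that difference is TBI day 1 against TBI day 14. The Nfkb1 value for TBI day 14 against TBI day 1 was −0.0077 with the covariate and −0.0646 to 0.0894 over samples left out. Between sham days, leaving out single samples moved Tnf from −1.07 to 0.24, Tnfrsf1a from −0.0778 to 0.92, Tnfrsf1b from −0.87 to 0.14 and Nfkb2 from −0.55 to 0.11, and Tnfrsf1a was −0.0717 without the choroid plexus libraries.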
